A study of Mus musculus with 48 samples.

Results

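In the 10x library of mouse embryonic stem cells (ESCs) after 6 days of V580, 922 of 15412 barcodes (5.98%, exact Clopper-Pearson 95% interval 5.61 to 6.37%) carried at least 1 UMI of at least 4 of the genes S100g, Fabp3, Cited1, Car4, Pitx1 and Rbp4 and fewer than 3 of the endoderm genes Lama1, Cubn, Sox17 and Foxa2. These 922 are called the selected barcodes. All 15412 barcodes had at least 200 genes and were kept. V580 is vitamin C (Vc) together with AM580, an agonist of the retinoic acid receptor alpha, and the study used it to turn female ESCs into gonadal somatic cell-like cells (GSCLCs). The 10x sample holds GSCLCs of strain C57BL/6 as 1 library with a single barcode suffix. The study describes this sequencing as done in triplicate, but the barcodes cannot be assigned to separate runs, so that cells were not replicates of a condition and no test was made between groups of barcodes. Intervals of UMI sums and shares cover counting error only.

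The bulk libraries used beside it, all labelled C57BL/6, were ESC-derived cultures in V580 at day 4, 6, 8 and 10 (3 libraries each), cultures with no compound (Con), Vc, AM580 or V580 at 24 h and 48 h (2 each), cells separated from gonads of E12.5 female embryos (E12.5_GC, 3), and gonadal somatic cells (GSCs) in 2 libraries each of adult mice aged 6 weeks (P6w) and of embryos at E12.5, E13.5 or E16.5. The ESCs were kept on feeder fibroblasts, which were removed by adherence before induction. Nothing in the labels ties a library to a separate culture or animal, so p values measure the spread between these libraries, which may be technical.

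S100g encodes a small calcium-binding protein known from intestine, uterus, placenta and yolk sac, where calcium crosses an epithelium. Cited1 encodes a transcriptional co-regulator without DNA-binding activity of its own, known from nephron progenitors and extraembryonic tissue, and Pitx1 is a homeodomain factor of the hindlimb and pituitary. Fabp3 carries fatty acids in the cytosol, Car4 is a carbonic anhydrase anchored at the cell surface, and Rbp4 carries retinol out of liver and visceral endoderm. Lama1 and Cubn mark parietal and visceral endoderm, the extraembryonic layers that enclose the yolk sac, and Sox17 and Foxa2 are endoderm transcription factors.

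On GRCm38 with GENCODE vM21, each of the genes of the rule is protein-coding. S100g lies at chrX:162961992-162964599 on the minus strand and Cited1 at chrX:102247381-102252181, also minus. Fabp3 lies at chr4:130308595-130315463 on the plus strand and Car4 at chr11:84957786-84966044, plus. Pitx1 lies at chr13:55825051-55836192, minus, and Rbp4 at chr19:38116629-38125281, minus.

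The 250 bases before the RefSeq start of S100g and of Fabp3 are shown because the bulk level of S100g rose between day 4 and day 6 whereas that of Fabp3 fell. They were read on GRCm38.p6 at chrX:162964600-162964849 (minus strand) and chr4:130308488-130308737 (plus strand), 5′ to 3′. Capitals mark TAAACA, the core of forkhead sites, and AGGTCA, the half-site of nuclear receptors, on either strand.
S100g: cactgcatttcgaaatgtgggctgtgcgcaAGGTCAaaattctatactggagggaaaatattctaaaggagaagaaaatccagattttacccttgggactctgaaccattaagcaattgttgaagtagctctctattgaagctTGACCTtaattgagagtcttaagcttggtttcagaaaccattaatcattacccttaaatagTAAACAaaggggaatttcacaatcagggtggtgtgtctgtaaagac
Fabp3: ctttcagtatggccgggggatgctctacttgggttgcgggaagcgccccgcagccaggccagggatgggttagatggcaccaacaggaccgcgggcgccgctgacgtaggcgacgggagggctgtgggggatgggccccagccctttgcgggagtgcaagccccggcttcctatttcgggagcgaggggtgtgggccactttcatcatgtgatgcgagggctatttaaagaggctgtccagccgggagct
The S100g window held 1 TAAACA, which began 46 bases before the start, and 2 AGGTCA, of which the second is printed on the opposite strand as TGACCT. It held no GATAA and no TATAAA. The Fabp3 window held 0 of these 4 motifs, which do not overlap in the S100g window. Of the 3 windows of Cited1, which also rose in bulk, 0 held TAAACA and 1 held AGGTCA. The Car4 window held 0 of both, and of the 2 Rbp4 windows 1 held TAAACA and 0 AGGTCA. Of S100g and Cited1, TAAACA was thus found in S100g alone, whereas AGGTCA was found in S100g and in 1 of the 3 windows of Cited1. Pitx1, which also rose in bulk, had no RefSeq window, and Car4 and Rbp4 are not in the bulk table. Of 32851 RefSeq promoter windows of 250 bases, 12.0% held TAAACA, 14.0% AGGTCA, 22.6% GATAA and 12.4% TATAAA on either strand. The motifs were chosen after the sequences had been seen, and a match is a description of letters.

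How the rule divided the barcodes was described first. Of 15412 barcodes, 1699 had at least 4 of the 6 genes, and the endoderm limit set 777 of them aside (45.7%). Among the 953 barcodes with 3 or 4 endoderm genes, 81.5% had at least 4 of the 6 genes. The limit thus ran through the barcodes in which most of the 6 genes were detected, and detection moved with depth, as described below. The selected barcodes numbered 430 with 4 of the genes, 262 with 5 and 230 with 6. Their summed level of the 6 genes was 1145, 2472 and 4891 counts per 1000000 UMIs (CPM), in that order. Just outside the rule, the 1047 barcodes with 3 genes and fewer than 3 endoderm genes summed to 705 CPM, and the 309 barcodes with at least 4 genes and 3 endoderm genes to 3670 CPM. Of the selected barcodes, 290 held no endoderm gene, 346 held 1 and 286 held 2.

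**Figure D1:**
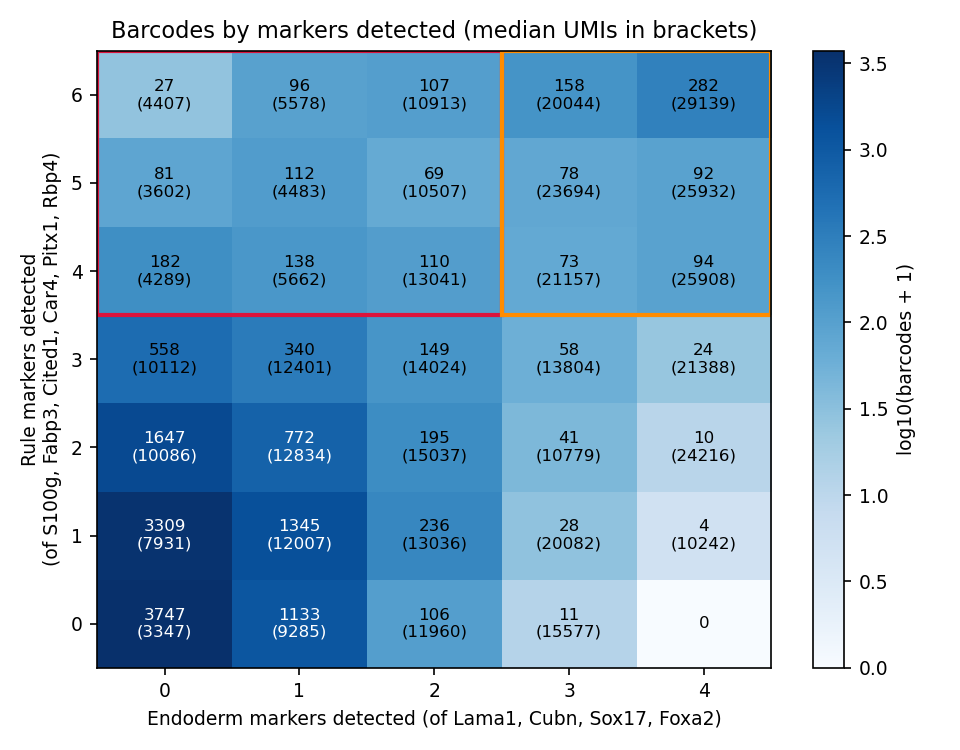
Number of barcodes of the V580 day 6 library by how many of the 6 genes of the rule (0 to 6) and how many of the 4 endoderm genes (0 to 4) had a UMI, with the median UMIs per barcode in brackets. The red box holds the 922 selected barcodes and the orange box the 777 set aside, of which 282 had all 6 genes and all 4 endoderm genes.

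The number of genes detected moved with depth. The selected barcodes had a median of 6014 UMIs (5th to 95th percentile 1261 to 32311) and 2041 genes, against 9398 UMIs and 3102 genes in all other kept barcodes. The barcodes set aside were deeper, with medians of 25493 UMIs and 5074 genes. Selected barcodes with 0, 1 and 2 endoderm genes had medians of 4048, 5258 and 11393 UMIs. When every barcode of at least 1500 UMIs was thinned to 1500 (861 selected barcodes, 61 left out, and 2670 others left out), 320 of the selected barcodes (37.2%) still met the rule. They were 246 of 400 in cluster 7 (61.5%), 51 of 142 in cluster 6 (35.9%) and 23 of 319 in other clusters (7.21%), where the clusters are those described in the next paragraph. At that depth 285 of the 777 barcodes set aside (36.7%) met it as well, and 35 of them (4.50%) kept at least 3 endoderm genes. The remaining 11043 thinned barcodes gave 0 that met the rule, which could not be otherwise, since thinning cannot add a gene. These shares follow from the selection and from the depth before thinning.

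**Figure D2:**
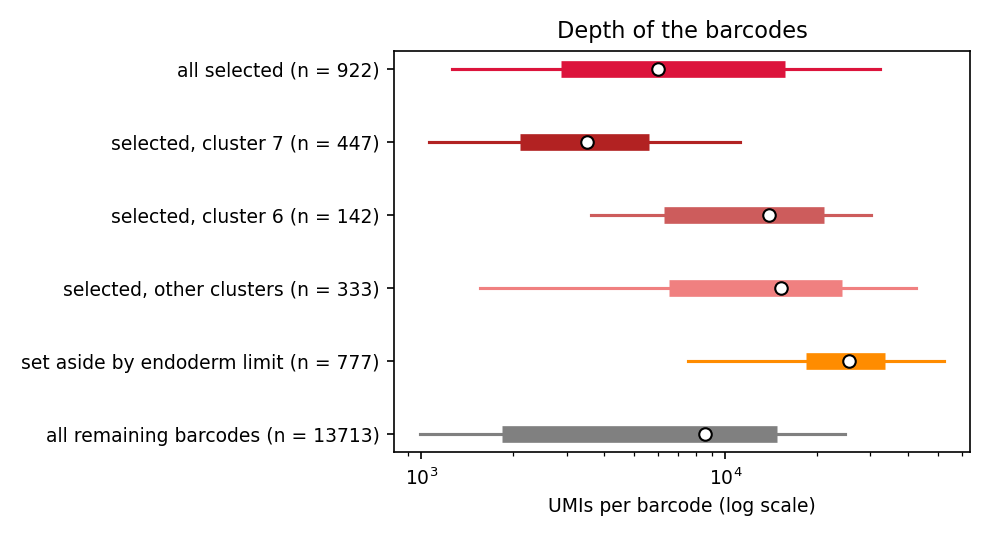
UMIs per barcode on a log axis for the selected barcodes in cluster 7, in cluster 6 and in other clusters, for those set aside by the endoderm limit and for all remaining barcodes. The circle is the median, the thick bar the 25th to 75th and the thin line the 5th to 95th percentile, and the median runs from 3504 in the selected barcodes of cluster 7 to 25493 in those set aside.

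Clustering of all barcodes did not hold the selected ones together. Cluster 7, of 880 barcodes and led by Cited1, S100g, Pitx1, Fabp3, Psph and Car4, held 447 of them (48.5%) and 27 of the 777 set aside. Cluster 6, of 961 barcodes and led by Srgn, Cubn, Glipr1, Klb and Pitx1, held 142 (15.4%) together with 709 of the 777 set aside. The other 333 (36.1%) were spread over clusters 0 to 5 and 8 to 10, with 73 in cluster 2 and 71 in cluster 1 as the largest shares. The same genes entered the clustering and the rule, so the clusters describe the selection and do not test it. A doublet caller run here marked 28.4% of the selected barcodes, against 22.7% of all barcodes and 19.8% of those set aside. It marked 11.0% of the selected barcodes of cluster 7, 43.0% of those in cluster 6 and 45.6% of those in other clusters, and the part of doublets in the values below was not tested beyond leaving the marked barcodes out.

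The 6 entry genes were described next, as the values that chose the barcodes and with no test. The selected barcodes held 403 CPM of S100g (exact Poisson 95% interval 391 to 416) and all other kept barcodes 112, a ratio of 3.61 (3.49 to 3.74). A UMI of S100g was found in 77.7% of selected and 15.0% of other barcodes. Split by cluster, the level was 1168 CPM in the selected barcodes of cluster 7, 544 in those of cluster 6 and 91.4 in the rest. The barcodes set aside stood at 708 CPM and the remaining barcodes at 14.8. The level in the barcodes set aside thus lay above that of the selected barcodes as a whole. After thinning, S100g was seen in 60.0% of the selected barcodes of cluster 7, 39.4% of those in cluster 6 and 18.2% of those elsewhere, against 38.7% of those set aside and 2.20% of cluster 1, whose leading genes Lrrn4 and Upk3b are mesothelial and which had a median of 12230 UMIs before thinning.

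Cited1 showed the same order. Its level was 381 CPM in selected and 95.3 in other barcodes (ratio 4.003), with a UMI in 86.9% and 18.1% of them. It stood at 1089 CPM in the selected barcodes of cluster 7, 479 in cluster 6 and 105 elsewhere, against 557 in those set aside and 20.3 in the remaining barcodes. Pitx1 had 198 CPM in selected and 58.5 in other barcodes (ratio 3.39), and was found in 61.8% of the selected barcodes, the lowest share of the 6 genes. Its split was 519, 318 and 45.5 CPM, with 379 in those set aside and 6.53 in the remaining barcodes. For all 3 of these genes the selected barcodes outside clusters 6 and 7 lay nearer to the remaining barcodes than to cluster 7.

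The carriers and the carbonic anhydrase were described in the same way. Fabp3 was found in 92.8% of selected and 39.4% of other barcodes, at 583 and 232 CPM (ratio 2.52). Car4 stood at 404 and 142 CPM (ratio 2.85). Rbp4 stood at 373 and 116 CPM (ratio 3.23), and it was the gene of the rule that was higher in cluster 6 than in cluster 7, with 960 CPM against 605 CPM in their selected barcodes. Most UMIs of the rule's genes lay outside the selection: the selected barcodes held 14.0 to 20.6% of the UMIs of each gene and the barcodes set aside 49.0 to 74.1%. Single barcodes reached 81 UMIs of S100g, 192 of Fabp3 and 248 of Rbp4. Because a detected gene was the entry condition, each gene was also described in barcodes chosen on the other 5 genes alone. Of the 650 barcodes chosen without S100g, 68.3% carried it (interval 64.6 to 71.9%) at a ratio of 4.58 over the others, and the ratio of the other 5 genes, treated alike, ran from 2.86 for Fabp3 to 4.83 for Cited1.

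**Figure D3:**
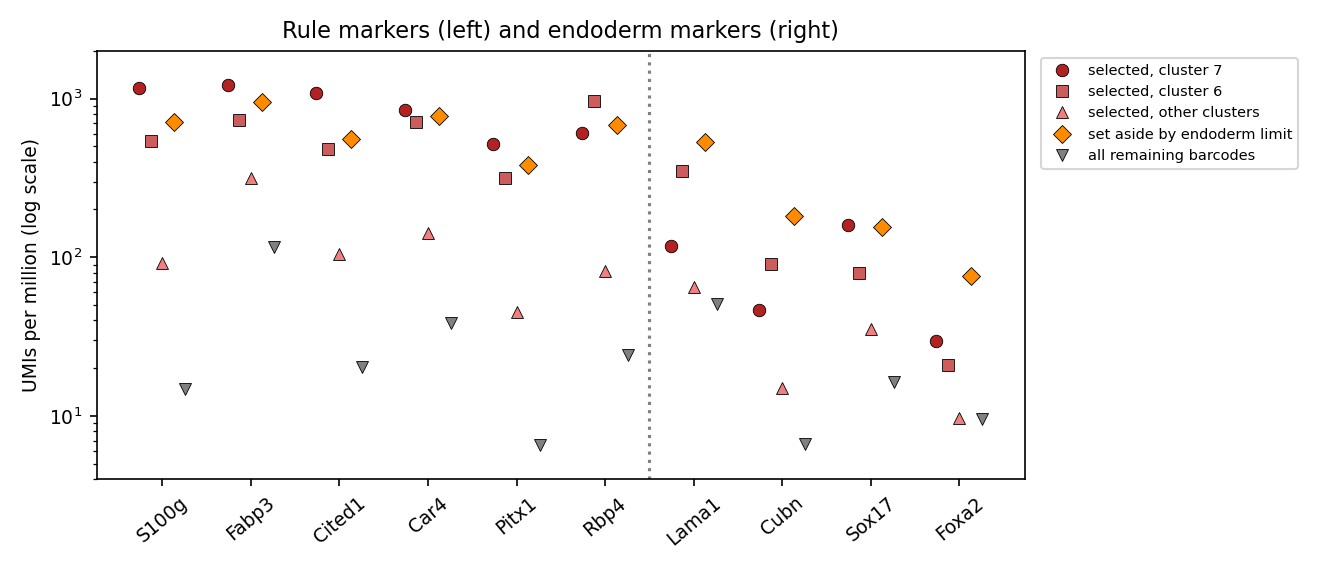
CPM of the 6 genes of the rule and the 4 endoderm genes, from summed UMIs on a log axis, with 1 marker per gene for each group of barcodes. S100g, Cited1, Fabp3, Car4 and Pitx1 were highest in the selected barcodes of cluster 7 and Rbp4 in those of cluster 6, whereas Lama1, Cubn and Foxa2 were highest in those set aside.

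S100g and Cited1 together did not mark every selected barcode. Both were found in 614 of 922 (66.6%), S100g alone in 102, Cited1 alone in 187 and neither in 19 (2.06%). Both were found in 566 of the 777 barcodes set aside (72.8%) and in 249 of the 13713 remaining ones (1.82%). At 1500 UMIs, both were found in 47.5% of the selected barcodes of cluster 7, 20.4% of those in cluster 6, 6.27% of those elsewhere and 25.9% of those set aside. Both are genes of the rule, so these shares describe the selection and test nothing. Because the 922 barcodes lie in several clusters and 614 held both genes, the selection is named here by its rule and given no cell type.

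Endoderm genes were present below the limit. Sox17, which was also among the leading genes, had 69.6 CPM in selected and 35.7 CPM in other barcodes (ratio 1.95), with 159 CPM in the selected barcodes of cluster 7 against 155 in those set aside. Lama1, a laminin chain of the basement membrane that parietal endoderm lays down, had 136 and 118 CPM (ratio 1.16), but 531 CPM in those set aside. Cubn, an uptake receptor of visceral endoderm, had 37.5 and 31.0 CPM, against 181 CPM in those set aside, and Foxa2 16.1 and 18.9 CPM, against 75.8. Lama1, Cubn, Sox17 and Foxa2 were all limited by the rule itself. Their lower level in the selected barcodes as a whole than in the barcodes set aside is therefore not a result.

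The other genes of a list of 21 extraembryonic endoderm genes were not used by the rule. With Lama1, Cubn, Sox17 and Foxa2 included, the list summed to 5011 CPM in selected barcodes, 13014 in those set aside and 2416 in the remaining ones. It was 5336 CPM in the selected barcodes of cluster 7, 11211 in those of cluster 6 and 2658 elsewhere. Sparc, a secreted matrix protein, had 2182 CPM in selected barcodes against 5011 CPM in those set aside, and the basement membrane collagen Col4a1 1048 against 3301 CPM. Of the 15 genes of the list with at least 10 CPM, 2 were at least 2-fold higher in selected than in all other barcodes, where 0.988% of 8809 genes were, and 0 were at least 2-fold lower (0.261% of all). The pair were Apoa1, a lipoprotein of liver and visceral endoderm, at 42.7 against 8.57 CPM, and Ttr, a carrier of thyroid hormone and of Rbp4, at 24.1 against 4.91 CPM. Apoa1 was at 135 CPM in the selected barcodes of cluster 6 and at 4.63 CPM outside clusters 6 and 7. Afp, the fetal serum protein of visceral endoderm, had 57 UMIs, all of them in selected barcodes of cluster 6.

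Against the barcodes set aside, 7.22% of 8682 genes were at least 2-fold higher in the selected barcodes and 2.51% at least 2-fold lower. Of the 15 extraembryonic endoderm genes, 0 were higher in the selected barcodes than in those set aside by any amount, and 11 were at least 2-fold lower, among them the 4 genes of the limit. This contrast was drawn by the endoderm limit and is given as a description.

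Of the 24 genes with the highest ratio to all other barcodes, among genes found in at least 30% of selected barcodes, 7 belong to the rule, the 6 entry genes and Sox17. The other 17 ran from Nup62cl, a nuclear pore-like gene of the X chromosome (80.1 against 28.4 CPM, ratio 2.82), to Gpx3, a secreted glutathione peroxidase (269 against 141 CPM, ratio 1.91). Myl7, the atrial myosin light chain, had 153 and 59.6 CPM (ratio 2.56), but the cardiac genes Tnnt2 (12 UMIs), Nkx2-5 (17 UMIs) and Ttn (3 UMIs) were near 0. Of the 8 genes of a cardiac list, 4 had at least 10 CPM. Of these 4, with Myl7 among them, 2 were at least 2-fold higher and 1 at least 2-fold lower (0.988% and 0.261% of all genes). The metallothioneins Mt1 and Mt2, which bind zinc and copper, had ratios of 2.46 and 2.44. Among all clusters Mt2 was highest in cluster 8, described below, with 967 CPM against 132 CPM in cluster 7. A single selected barcode held 205 of the 1700 UMIs of Mt2 in the selection. Nup62cl, Dusp9, Mt1 and Rhox5 were also highest in cluster 8, with 196, 445, 778 and 683 CPM. Enzymes of amino acid synthesis were also among the 17, with Psph, which makes serine, at 2.43 and Asns, which makes asparagine, at 1.97. The lysosomal proteases Ctsh and Lgmn had ratios of 2.27 and 1.96. Apoe, the apolipoprotein of lipid transport, stood at 991 against 515 CPM (ratio 1.92). The others were Dusp9, Pcbd1, Cystm1, S100a1, Csrp2, Rhox5 and Morc4, with ratios from 1.93 to 2.48.

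All 24 leading genes had a higher CPM in the selected than in the remaining barcodes, which their choice by ratio fixed in advance. Of the 24, 23 were higher still in the barcodes set aside, all but Mt2 (171 CPM in selected barcodes, 107 in those set aside). Over 8682 genes the median log2 ratio of selected to set-aside barcodes was 0.03. Within the selection, 23 of 24 were higher in cluster 7 than outside clusters 6 and 7, again all but Mt2. No share over all genes is given for this count, which describes the clusters and tests nothing. Ctsh, for example, had 253 CPM in selected barcodes of cluster 7, 262 CPM in cluster 6, 25.2 CPM elsewhere and 12.98 CPM in the remaining barcodes. S100g, Cited1, Nup62cl, Dusp9, Rhox5 and Morc4 lie on the X chromosome, so that 6 of the 24 did. Of these, S100g and Cited1 are entry genes whose place among the 24 follows from the rule. Among all 3153 genes found in at least 30% of selected barcodes, 93 lie on the X chromosome (2.95%), and no test was made. The X chromosome as a whole gave 3.31% of the UMIs of selected and 3.14% of those of other barcodes.

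The 10 lowest ratios were between 0.53 and 0.57. Ptn, a secreted growth factor, had 417 CPM in selected and 792 CPM in other barcodes (ratio 0.53). Wnt4, the ligand that the early ovary needs, had 143 and 253 CPM (ratio 0.56), and Wt1, the zinc finger factor of gonad and mesothelium, 110 and 194 CPM (ratio 0.57). Emx2, a homeobox gene that the gonad needs, had 34.6 and 63.3 CPM. Igfbp5, Alcam, Zeb1, Col3a1, Adgrl3 and Tshz2 made up the rest, with ratios from 0.54 to 0.57. Each of the 10 was lower still in the barcodes set aside and lower in cluster 7 than in the selected barcodes outside clusters 6 and 7. These counts describe the selection and its clusters, and no share over all genes is given for them. Wnt4, for example, stood at 35.7 CPM in cluster 7, 79.2 in cluster 6, 202 elsewhere, 49.5 in those set aside and 286 in the remaining barcodes.

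Lists of transporters and carriers were read next. The 11 genes of a list of lipid carriers and uptake genes other than Fabp3 summed to 1382 CPM in selected barcodes and 763 in all others (ratio 1.81). Of the 8 genes of the whole list with at least 10 CPM, 2 were at least 2-fold higher than in all other barcodes (0.988% of all genes), the entry gene Fabp3 and Apoa1. Fabp5, a second fatty acid carrier, had 202 and 111 CPM and Apoc1 65.9 and 39.5 CPM, whereas Lpl, which releases fatty acids from lipoproteins, had 17.1 and 28.7 CPM. Fabp4 had 0 UMIs among the 9928383 of the selected barcodes, which allows up to 0.302 CPM. The 9 genes of a calcium and ion transport list other than S100g and Car4 summed to 1000.1 CPM in selected and 954 in other barcodes (ratio 1.05). Car2, a cytosolic carbonic anhydrase, was the 1 gene among them at least 2-fold higher (47.6 against 23.1 CPM). The calcium channel Trpv6 and the calcium-binding Calb1 were near 0, with 2 and 5 UMIs. The calcium pump Atp2b1 had 311 CPM against 466 CPM.

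Retinoid genes split. Rbp4 and Cyp26a1, which breaks retinoic acid down and is a known target of its receptors, were higher in selected barcodes, Cyp26a1 at 195 against 108 CPM, with 519 CPM in those set aside. Aldh1a2, which makes retinoic acid, had 35.7 against 69.8 CPM, and Crabp1, which binds it in the cytosol, 11.8 against 23.9 CPM. Of the 15 genes of the list, 2 were at least 2-fold higher, the entry gene Rbp4 and Ttr, and 1 at least 2-fold lower, Crabp1, where 0.988% and 0.261% of all genes were. Without Rbp4 the list summed to 947 CPM against 1178.

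Markers of the gonad, the aim of the induction, had lower sums than in other barcodes. A list of 10 genes of the gonad primordium summed to 418 CPM in selected barcodes, against 749 in the remaining barcodes, 223 in those set aside and 126 in the selected barcodes of cluster 7. Nr5a1 and Lhx9, which define that tissue, had 0 UMIs. In all other kept barcodes they had 0.0392 and 0.875 CPM. Of the 7 genes with at least 10 CPM, only Gata4, which endoderm also makes, was above its level in other barcodes (37.0 against 32.9 CPM). The 9 granulosa genes summed to 315 CPM against 430, with 10 UMIs of Foxl2. Wnt4 alone gave 143 and 253 CPM of these sums, so most of the difference lay in Wnt4. Of the 7 with at least 10 CPM, 3 were above their level in other barcodes. The median log2 ratio of the 7 was -0.07, against -0.06 over all 8809 genes, so the list as a whole was not lower. The 3 were Irx3, Kitl and Fst, which binds activin and stood at 71.4 against 55.4 CPM, with 277 CPM in the barcodes set aside. Interstitial genes summed to 394 CPM against 658, smooth muscle genes to 1139 against 1497, and mesothelial genes to 567 against 684 CPM. In cluster 7 these 3 sums were 89.5, 524 and 242 CPM, against 557, 1559 and 748 CPM in the selected barcodes outside clusters 6 and 7.

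**Figure D4:**
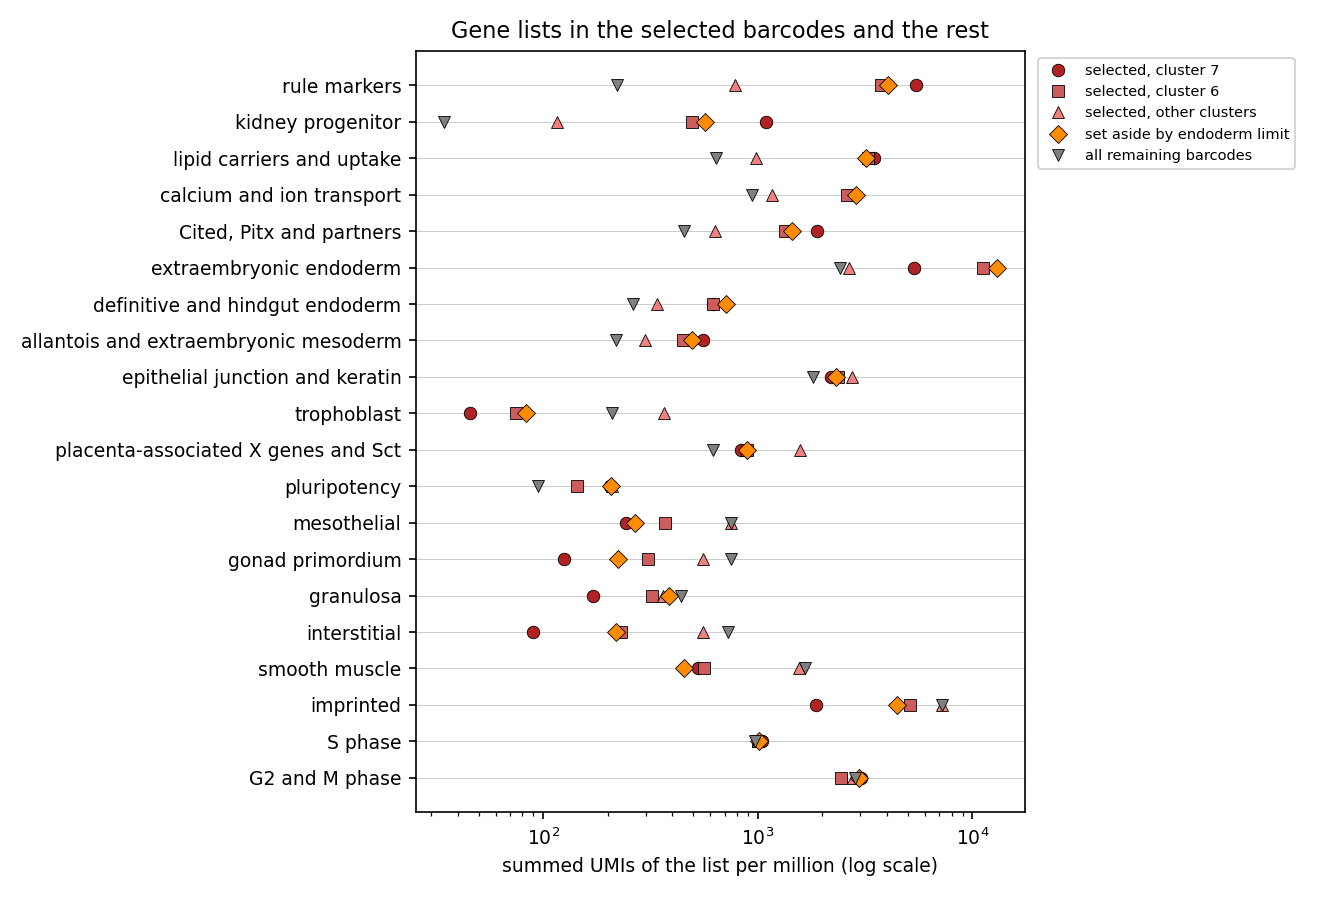
Summed CPM of gene lists on a log axis in the selected barcodes of cluster 7, of cluster 6 and of other clusters, in those set aside by the endoderm limit and in all remaining barcodes. In the lists of interstitial, mesothelial and gonad primordium genes the selected barcodes outside clusters 6 and 7 (557, 748 and 557 CPM) lay close to the remaining barcodes (730, 752 and 749 CPM), whereas the extraembryonic endoderm list was highest in those set aside.

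Placental genes were high in cluster 8, a cluster of 607 barcodes led by Serpinb9e and Fthl17a, and in the 39 selected barcodes that it held. Rhox6 and Rhox9 are homeobox genes of the X chromosome known from placenta and germ cells. They stood at 2285 and 2169 CPM in the 39, against 67.9 and 16.1 CPM in the selected barcodes of cluster 7. In the 294 selected barcodes outside clusters 6, 7 and 8 they had 44.8 and 22.4 CPM, so that the 397 and 359 CPM of all 333 outside clusters 6 and 7 rested on cluster 8. Sct, which encodes secretin, had 1641 CPM in the selected barcodes of cluster 8, 26.2 in those 294 and 10.1 in cluster 7. The trophoblast list summed to 1399 CPM in the 39, 173 in the 294 and 45.7 in the selected barcodes of cluster 7. Hand1 stood at 66.6 and Plac1 at 135 CPM in the 39, while the trophoblast hormones Prl3d1 and Prl2c2 had 0 UMIs in all selected barcodes. The imprinted Phlda2, a growth regulator of placenta, was 3.30 times higher in selected than in all other barcodes (58.9 against 17.8 CPM). It had 370 CPM in the 39, 9.56 in the 294 and 34.2 in the selected barcodes of cluster 7. In all 607 barcodes of cluster 8, the trophoblast list summed to 1462 CPM and a list of placenta-associated X genes and Sct to 6465 CPM. The 39 had 1399 and 7228 CPM, so these levels belong to the cluster and are not particular to its selected barcodes. These genes entered the clustering, so the values describe the clusters and do not test them.

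Lists for other origins were read with the genes of the rule left out. The pluripotency genes summed to 195 CPM against 110 (ratio 1.76). The cardiac genes summed to 211 against 127 (1.66), but Myl7 alone gave 153 and 59.6 CPM of these sums, so the higher sum rested on Myl7. Genes of surface ectoderm and amnion summed to 1714 against 1222 (1.40) and those of definitive and hindgut endoderm to 368 against 269.5 (1.37). For comparison, the extraembryonic endoderm genes summed to 4751 against 3693 (1.29). The allantois list, without Pitx1, summed to 183 against 198 CPM. The kidney progenitor list was nearly all Cited1, with 6 UMIs of Six2, 3 of Eya1 and 8 of Gdnf. Of 8 blood and macrophage genes, 7 had 0 UMIs. The pluripotency genes Pou5f1 and Nanog had 26 and 32 UMIs, while Dppa5a had 114 against 55.7 CPM. Spink1, an inhibitor of trypsin in gut endoderm, stood at 207 CPM in cluster 7 and 193 CPM in those set aside, against 5.98 CPM in the remaining barcodes. Genes of S phase summed to 1011 CPM against 977, and those of G2 and M phase to 2761 against 2870. Of the 26 lists that hold no gene of the rule, 10 had a higher sum in selected than in all other barcodes, and the median gene of the 8809 had a log2 ratio of -0.06.

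Within the selection, cluster 7 and cluster 6 differed most in RNA that is kept in the nucleus. Malat1, a nuclear long noncoding RNA, had 2029 CPM in the selected barcodes of cluster 7 and 12022 in those of cluster 6, Meg3 252 and 2070 CPM, and Kcnq1ot1 31.2 and 393 CPM. Ribosomal protein genes gave 35.4% and 28.5% of the UMIs and mitochondrial genes 1.45% and 2.95%. Of 8245 genes, 0.679% were at least 2-fold higher in cluster 7 and 24.1% at least 2-fold lower, with a median log2 ratio of -0.39. Gpx2, a glutathione peroxidase of gut epithelium, was among the higher ones (124 against 31.8 CPM), as were Dppa5a (126 against 42.2 CPM), Cited1, S100g and Sox17. The selected barcodes of cluster 7 had a median of 3504 UMIs and those of cluster 6 of 13875, and the part of RNA quality or cell breakage in this difference was not tested.

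Bulk libraries, which had no part in the rule, were then asked when the same genes rise in culture and whether they are present in the gonad. In bulk, fewer cells of a type and less RNA per cell cannot be told apart. The deposited table of FPKM, fragment counts scaled to gene length and library size, lists S100g, Fabp3, Cited1 and Pitx1, all 4 endoderm genes, 20 of the 24 leading genes and all 10 of the lowest, while Car4, Rbp4, Myl7 and Rhox5 are not among its 13682 genes. Genes were tested with limma on log2(FPKM + 1) and called at a Benjamini-Hochberg adjusted p below 0.05 and at least 2-fold. Successive comparisons share the libraries of a day.

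S100g was listed at 0 in the Con, Vc, AM580 and V580 libraries at 24 h and in Con and Vc at 48 h, at 1.06 and 0.660 FPKM in AM580 and at 0.521 and 0.798 FPKM in V580 at 48 h. It stood at 1.56, 2.61 and 2.65 FPKM at day 4, at 60.1, 71.7 and 76.0 at day 6, at 143, 161 and 163 at day 8 and at 66.7, 73.3 and 89.7 at day 10. The days did not overlap except day 6 with day 10. The log2 difference was 4.43 from day 4 to day 6 (SE 0.136, limma adjusted p = 8.88e-12), where 3.41% of 11512 tested genes were called higher, and 1.16 from day 6 to day 8 (adjusted p = 1.08e-05, 2.29% called higher). From day 8 to day 10 it was -1.02 (adjusted p = 6.04e-05, 0.321% called lower), a call that was lost in 4 of 6 fits with 1 library left out, with -0.93 to -0.998 without day 10 library 1 or 3 or day 8 library 1 or 2. In E12.5_GC, S100g had 0, 0.0750 and 0.0888 FPKM.

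Pitx1 followed S100g to day 8 and not after it. Its libraries spanned 1.73 to 2.02 FPKM (day 4), 22.0 to 24.4 (day 6), 48.2 to 54.9 (day 8) and 71.7 to 81.1 (day 10), with no overlap between days. Its log2 differences were 3.10 (limma adjusted p = 2.43e-12) and 1.10 (2.03e-07), both called, and 0.55, under 2-fold (0.973% of all genes called higher from day 8 to day 10). Cited1 spanned 2.70 to 3.09 FPKM (day 4), 16.9 to 19.7 (day 6), 29.9 to 33.7 (day 8) and 28.9 to 31.2 (day 10), and its rise of 2.31 to day 6 (adjusted p = 3.13e-09) was its only call between successive days. In AM580 alone at 48 h Cited1 had 3.86 and 5.18 FPKM, above its 2.79 and 2.47 in V580 and 1.95 and 2.27 in Con, and the difference between V580 and Con was 0.22 and not called.

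Fabp3 ran the other way. It had 139.9, 143 and 162 FPKM at day 4, 67.3, 73.1 and 78.3 at day 6, 53.0 to 58.5 at day 8 and between 74.97 and 83.8 at day 10. The day 4 libraries lay above all others. Its log2 difference from day 4 to day 6 was -1.01 (SE 0.159, limma adjusted p = 0.000114), where 1.67% of genes were called lower, and the call was lost without day 6 library 2 (-0.96) or day 4 library 1 (-0.95). Fabp3 was already at 43.7 to 51.6 FPKM in every library at 24 h, with Con among them. The genes joined by the rule thus did not share a time course in bulk.

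**Figure D5:**
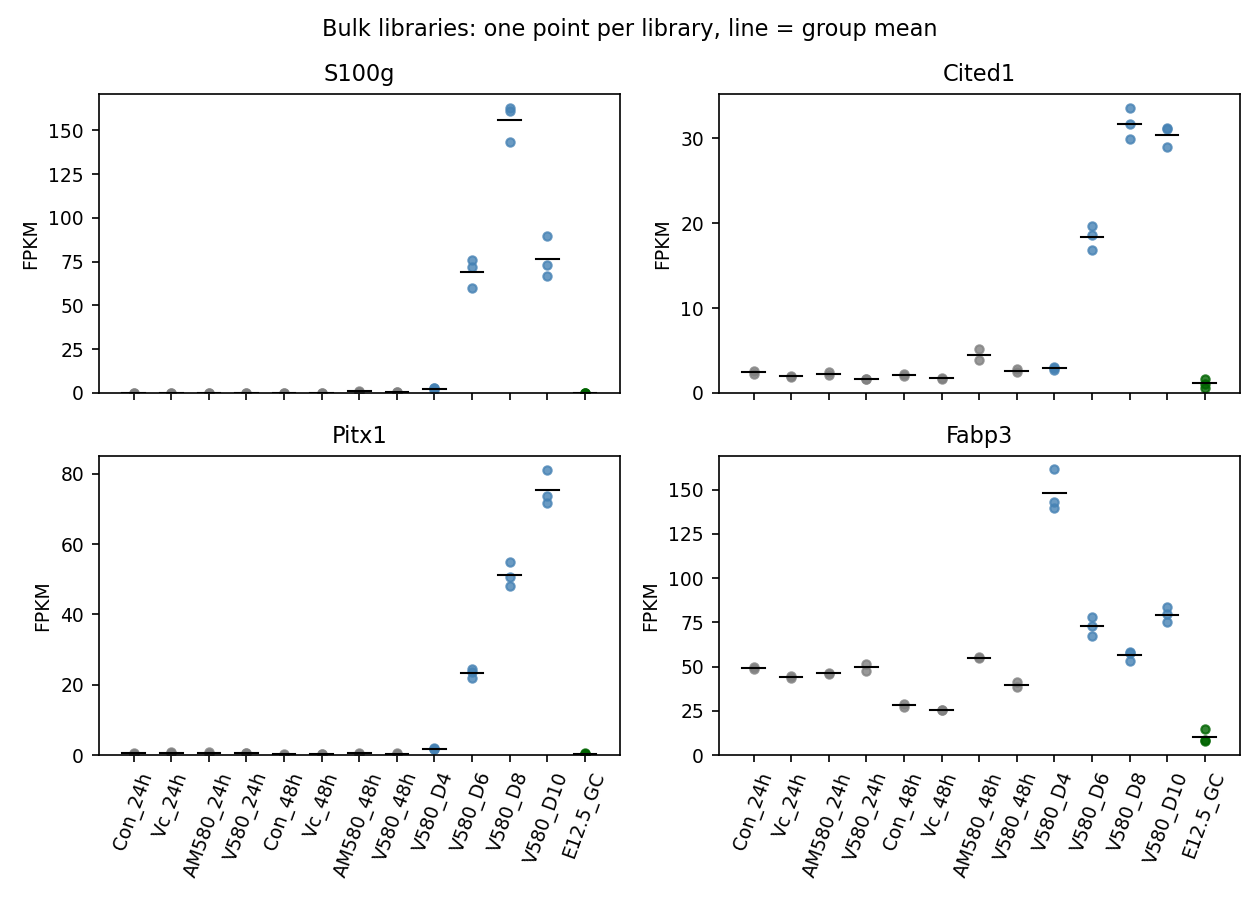
FPKM of S100g, Cited1, Pitx1 and Fabp3 in 31 bulk libraries of 13 groups, with 1 point per library and a line at the group mean. Over day 4, day 6 and day 8 the mean of S100g climbs (2.28, 69.2 and 156 FPKM), whereas that of Fabp3 falls (148, 72.9 and 56.5 FPKM).

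The endoderm genes moved by less than 2-fold from day 4 to day 6. Between those days limma called 0 of the 4, where 3.41% of all genes were called higher and 1.67% lower. The log2 differences were 0.12 for Lama1, 0.60 for Cubn, -0.02 for Sox17 and 0.42 for Foxa2. At an unadjusted p below 0.05, 2 of the 4 were higher, a count given without a share over all genes. Without the 2-fold threshold, 5167 of 11512 genes passed an adjusted p below 0.05 in either direction. Foxa2 fell from day 6 to day 8 (16.8, 17.3 and 18.3 FPKM to 6.38, 6.99 and 7.15, log2 difference -1.24, limma adjusted p = 4.89e-07, 0.252% of genes called lower), while S100g rose. Cubn was already higher in V580 (1.20 and 1.32 FPKM) than in Con (0.0890 and 0.125) at 48 h, by 1.03 (adjusted p = 1.39e-08, 1.84% of 10644 tested genes called higher), a call that was lost without V580 library 1 (0.99). In AM580 alone it had 2.502 and 2.91 FPKM.

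Of the 18 leading genes other than the entry genes, 16 could be tested in bulk. From day 4 to day 6, 1 rose and 4 fell, against 3.41% and 1.67% of all genes, and their median log2 difference was -0.08 against -0.01 over all genes. Ctsh was the gene that rose, from 1.43, 1.61 and 1.76 FPKM to 5.39, 5.84 and 6.03 (log2 difference 1.38, limma adjusted p = 8.12e-08). Apoe fell from 158, 163 and 165 to 60.7, 64.9 and 67.3 FPKM (log2 difference -1.32, adjusted p = 2.94e-06). Mt1 fell from 121, 133 and 142 FPKM to 41.0, 42.2 and 45.3 (log2 difference -1.60), Asns by 1.06 and Mt2 by 1.04 on the log2 scale, the last a call that was lost without day 6 library 2 (-0.93) or day 4 library 3 (-0.84). From day 6 to day 8, limma called 0 of the 16 in either direction, where 2.29% of all genes were called higher and 0.252% lower. At an unadjusted p below 0.05, 7 were higher and 4 lower, all under 2-fold. From day 8 to day 10, 1 was called higher and 0 lower, where 0.973% and 0.321% of all genes were. At an unadjusted p below 0.05, 12 were higher and 1 lower. The median log2 difference was 0.49 against 0.01 over all genes. The called gene was S100a1, a calcium-binding protein (log2 difference 1.05, limma adjusted p = 0.000254), a call that was lost without day 10 library 1 (0.96). No share over all genes is given for the counts at an unadjusted p. Without the 2-fold threshold, 4737 of 11512 genes passed an adjusted p below 0.05 from day 6 to day 8 and 3969 from day 8 to day 10, so differences at this level were common. At 48 h, Nup62cl was higher in V580 than in Con (30.3 against 10.9 FPKM, log2 difference 1.39, adjusted p = 7.06e-12), the 1 call among 15 tested, where 1.84% of all genes were called higher and 1.34% lower.

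The genes lowest in the selected barcodes behaved otherwise in bulk. Of the 10, 6 rose from day 4 to day 6 by limma and 0 fell, where 3.41% of all genes were called higher and 1.67% lower. At an unadjusted p below 0.05, 10 were higher and 0 lower, a count given without a share over all genes. Without the 2-fold threshold, 5167 of 11512 genes passed an adjusted p below 0.05 in either direction. The 6 had log2 differences of 2.42 for Ptn, 2.63 for Alcam, 2.56 for Emx2, 3.05 for Wnt4, 2.29 for Col3a1 and 1.66 for Adgrl3. Wnt4 had 3.25, 3.45 and 3.54 FPKM at day 4 and 34.1, 35.7 and 37.0 at day 6 (limma adjusted p = 3.6e-11). S100g, Cited1 and Pitx1 thus rose in the same 2 days as genes whose UMIs were lower in the selected barcodes.

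Against E12.5_GC, all 4 listed entry genes were higher at day 6 of V580, where 7.06% of 11512 genes were called higher and 8.11% lower. The log2 difference was 6.05 for S100g, 4.18 for Pitx1 (E12.5_GC 0.177, 0.404 and 0.461 FPKM), 3.22 for Cited1 (0.611, 1.09 and 1.64 FPKM) and 2.75 for Fabp3 (7.78, 8.56 and 14.8 FPKM), with limma adjusted p values from 1.73e-14 to 9.61e-10. Of the other 16 leading genes, 6 were higher and 1 lower. Nup62cl (2.30), Cystm1 (2.46), Gpx3 (2.24) and Lgmn (1.20) were among the higher ones, and S100a1 was the lower one (-1.24, lost without E12.5_GC library 2 at -0.98). Among the endoderm genes Foxa2 was higher by 3.97, Cubn by 2.74 and Sox17 by 1.05, the last a call that was lost without E12.5_GC library 2 (0.87) or library 3 (0.92), while Lama1 was not called (0.13).

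The GSC counts, of 12694769 to 22259044 per library, hold all 6 entry genes. S100g had 8 and 14 counts at E12.5 (0.410 and 0.775 CPM), 24 and 17 at P6w (1.88 and 1.34 CPM), 2 and 5 in the E13.5 libraries, and 4 and 2 in those of E16.5. Pitx1 had 2 to 21 counts in 7 of 8 libraries and 62 in the second P6w library. Car4 had 0 to 8 counts in 7 libraries and 68 in the same P6w library, in which it stood at 5.36 CPM against 0.156 CPM in the other. S100g, Pitx1 and Car4 were thus at low counts in GSCs of every stage. Fabp3, in contrast, had 23.0 and 23.5 CPM at E12.5 and 119 and 128 CPM at P6w. Cited1 had 5.02 and 7.09 CPM at E12.5 and 18.3 and 29.997 CPM at E16.5. Rbp4 had 1.84 and 1.27 CPM at E12.5, 42.4 and 49.0 CPM at E13.5 and 5.03 and 4.93 CPM at E16.5. These CPM come from another table than the FPKM and were normalized separately, and no test was made on them.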

How the data were processed

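The members and all gene lists were chosen with earlier results of these data known. The authors deposited UMI counts per gene for 1 10x sample, FPKM per gene symbol for 31 bulk libraries and whole-number read counts for 8 gonadal somatic cell libraries, all on mm10. The submitters' processing notes name Trim Galore, FastQC, HISAT2, SAMtools, featureCounts and RSEM, and which tool gave the FPKM is not given in the sources used here. The depth behind the FPKM values is unknown in reads, and relative to the first day 6 library it was estimated at 0.724 to 1.24. A table with 10 columns that could not be matched to samples was not used.

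Barcodes with at least 200 genes were kept, with no upper limit on UMIs. UMIs were summed per group and divided by the group's total (CPM), and a sum under 3 UMIs was raised to 3 for ratios. Clusters came from scanpy 1.11.5 and leidenalg 0.10.2 (10000 per cell, log1p, 2000 variable genes, 20 components, 20 neighbours, resolution 0.5, seed 0, Python 3.11.15). Doublets were called with scanpy's scrublet at an expected rate of 0.12 and were kept unless stated. Depth was equalised by thinning to 1500 UMIs. Named genes were the genes of the rule, the 24 highest and 10 lowest ratios among genes found in at least 30% of members (highest) or of other barcodes (lowest), and from each list the genes with the highest CPM and defining genes near 0. Gpx2, Malat1, Meg3, Kcnq1ot1, Phlda2, Spink1, Rhox6, Rhox9, Sct, the split at cluster 8 and the genes behind counts of 5 or fewer were chosen after their values were seen.

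FPKM were tested with limma 3.58.1 (trend, R 4.3.3) on log2(FPKM + 1), for genes with FPKM of at least 1 in as many libraries as a group holds, in 1 model of 15 libraries (days and E12.5_GC) and 1 of 16 (24 h and 48 h), without a replicate term. A fold on this scale understates the change of low genes. Procedures were tested on simulated data. Promoter sequences came from RefSeq (GRCm38.p6), in which 5 of the 6 entry genes matched, with the 50 bases after the start left out.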

Additional observations from a re-analysis of the deposited data

How the results depend on the processing

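The share of barcodes that met the rule, 5.98% as reported, was 12.8% with at least 3 of the 6 genes, 3.19% with at least 5, 11.0% with no endoderm limit, 1.88% with no endoderm gene allowed, 5.54% without doublet-called barcodes and 4.77% after thinning. Of the 24 leading genes, 14 were again among the leading 24 with at least 5 genes required, 11 with no endoderm gene allowed, 14 after thinning and 12 with thinned values for the barcodes as selected, the last a setting chosen after the data were seen. Over the comparisons in the order day 6 with day 4, day 8 with day 6, day 10 with day 8, day 6 with E12.5_GC and V580 with Con at 48 h, limma called 585, 293, 149, 1747 and 339 genes. A pseudocount of 0.1 gave 1054, 599, 346 and 670 for all but E12.5_GC. Without the 2-fold threshold 5167, 4737, 3969, 7718 and 6078 genes were called. With 1 library left out the counts ran from 569 to 595, 279 to 300, 129 to 172, 1701 to 1859 and 339 to 346, where a group of 2 is left with 1 library that is assumed to vary like the others. A replicate block, which leaves the fold unchanged in these balanced designs, gave 585, 293, 149, 1747 and 339 and changed 0 calls of single genes. Correlations of deviations at the same replicate number ran from -0.27 to 0.32 between day 10 and day 8. In the other comparisons they ran from -0.04 to 0.07. With 2 or 3 libraries in a group, these values cannot decide whether the numbers pair the libraries. Of 1695 values of single genes under alternatives, 0 changed sign while called, 13 lost the call and 99 gained one, 83 of these without the fold threshold. The 10x sample is 1 library, so no spread between cultures can be given for its values.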
